A study of Homo sapiens with 6 samples.

Results

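Kinesins are motor proteins that walk along microtubules or take them apart at their ends. The mitotic kinesins build the spindle, move the chromosomes and help the cell to divide, and their transcripts accumulate as cells approach mitosis. The transport kinesins carry vesicles, organelles and protein complexes through the cytoplasm in dividing and non-dividing cells alike, and several of them are best known from neurons. A further set works in or near cilia and flagella.

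The genes described here are those whose Ensembl identifier maps to a symbol made of KIF and a number. They were 35 of the 16715 genes in the table, all on autosomes. The family was divided by known function into 11 mitotic, 13 transport, 6 ciliary and 5 other kinesins. KIF2B, KIF12 and KIF25, 3 further symbols that had been assigned to these classes, and genes of the X chromosome such as KIF4A were not analysed here.

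RNA was measured in HCT116 cells, an established human colorectal carcinoma line, in 3 libraries from cells given 5aza and 3 from control cells. Azanucleosides such as 5aza trap DNA methyltransferases, so that DNA methylation is lost over cell divisions. The drug was given at 5 µM for 48 hours, and RNA was then taken after the cells had spent another 48 hours without it. The labels call the treatment 5aza, whereas the columns of the treated libraries carry the code DAC. Nothing in the labels says whether the 3 libraries of a group came from separate cultures, so the p-values measure the spread between these libraries, which may be technical.

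Values are FPKM, fragments scaled to transcript length and library size, so levels can be compared between genes. The summed FPKM lay between 577735 and 592051 in the 5aza libraries and between 601916 and 628399 in the control libraries. The sources used here state no read totals. The epithelial markers EPCAM (153 FPKM in 5aza and 166 FPKM in control cells), KRT8, KRT18, KRT19 and CDH1 were present, whereas the brush border gene VIL1 did not exceed 0.191 FPKM. Of 9 blood, endothelial and fibroblast markers, COL1A1 alone passed the filter on low values, with means of 6.71 FPKM in 5aza and 4.67 FPKM in control cells.

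Promoter sequences are shown first, because most mitotic kinesins held short sequence elements near their start sites that the choice of kinesin genes did not use. Each of the 2 elements was found in 9 of the 11 mitotic kinesins, and KIF2C held neither. The CHR element, with the core TTTGAA or, in a second form, TTCGAA, and the CCAAT box are known from promoters of genes expressed late in the cell cycle. The sequences run 5′ to 3′ on the strand of the gene, from 120 bases before to 30 bases after the start annotated by RefSeq on GRCh38.p14. Capitals mark a CHR core or a CCAAT box on either strand, so that TTCAAA and ATTGG are the same elements read from the other strand. The first 4 belong to mitotic kinesins that fell, KIF24 is a ciliary kinesin that fell, and KIF3C and KIF1B are transport kinesins that rose. KIF1B has 2 CCAAT boxes further upstream, which began 126 and 157 bases before its start and lie outside the printed stretch.
KIF22, chr16:29790631-29790780, plus strand: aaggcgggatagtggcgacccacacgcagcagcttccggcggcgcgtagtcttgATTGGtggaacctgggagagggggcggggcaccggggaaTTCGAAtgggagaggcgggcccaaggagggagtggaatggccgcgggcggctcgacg
KIF18B, chr17:44947744-44947893, minus strand: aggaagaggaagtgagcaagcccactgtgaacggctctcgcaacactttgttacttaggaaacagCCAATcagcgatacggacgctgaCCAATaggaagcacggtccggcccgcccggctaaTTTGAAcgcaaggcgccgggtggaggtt
KIF11, chr10:92593010-92593159, plus strand: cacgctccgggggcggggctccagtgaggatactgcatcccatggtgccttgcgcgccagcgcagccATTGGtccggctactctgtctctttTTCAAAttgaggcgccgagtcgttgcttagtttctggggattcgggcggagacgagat
KIF23, chr15:69414229-69414378, plus strand: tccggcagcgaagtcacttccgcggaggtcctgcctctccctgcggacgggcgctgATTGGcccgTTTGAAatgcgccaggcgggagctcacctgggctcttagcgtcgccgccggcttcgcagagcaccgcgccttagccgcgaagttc
KIF24, chr9:34329239-34329388, minus strand: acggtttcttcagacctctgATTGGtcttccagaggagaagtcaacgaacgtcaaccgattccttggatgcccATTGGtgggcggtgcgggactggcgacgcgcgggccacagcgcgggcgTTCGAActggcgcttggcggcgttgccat
KIF3C, chr2:25982468-25982617, minus strand: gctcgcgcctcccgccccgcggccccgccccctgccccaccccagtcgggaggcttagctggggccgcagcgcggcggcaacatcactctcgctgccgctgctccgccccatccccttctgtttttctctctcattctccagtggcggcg
KIF1B, chr1:10210450-10210599, plus strand: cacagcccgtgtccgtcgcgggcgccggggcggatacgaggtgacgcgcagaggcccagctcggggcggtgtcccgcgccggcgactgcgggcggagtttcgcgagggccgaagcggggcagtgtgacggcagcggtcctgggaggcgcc

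The comparison of 5aza with control cells asks how blocking DNA methyltransferases changes the transcripts of the cell. Mitotic kinesin genes were lower after 5aza: of 11 tested, 10 fell, and KIF4B, the remaining member, was lower without passing the test. The largest of these changes was that of KIF18B, whose mean fell by 29.02%, and the smallest that of KIF20A, whose mean fell by 14.7%. Transport kinesins did not share this direction: KIF1B, KIF3C and KIF5C rose, making 3 rises and 0 falls among 12 tested, and the other 9 did not pass. Among the ciliary kinesins KIF24 fell, and among the other kinesins no gene passed.

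"Rose" and "fell" are used here of an adjusted p under 0.05 from limma, adjusted over the 12360 genes that reached 0.5 FPKM in 3 or more libraries. By this rule 13.1% of all genes tested fell, 10.6% rose and 23.7% changed in either direction. Of the 35 kinesin genes, 30 were tested, and 11 fell, 3 rose and 16 did not pass. At an unadjusted p under 0.05, limma gave 0 rises among the mitotic kinesins, 0 falls among the transport kinesins and 0 changes among the other kinesins. Over all 12360 genes tested, 2096 were higher and 2511 lower at that threshold. Among the 9298 genes whose mean over all libraries lay within the range of the mitotic kinesins, 1.76 to 71.6 FPKM, 11.7% fell and 10.3% rose, so the background at these levels was close to that over all genes.

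The median log2 fold change was -0.28 over the mitotic kinesins and 0.07 over the 12 transport kinesins tested, beside -0.01 over all genes tested. The 11 mitotic values ran from -0.49 to -0.23 and the 12 transport values from -0.16 to 0.44, so the ranges did not meet. This separation rests on counting KIF2A (log2 fold change -0.02), a depolymerase of spindle poles and neurons, among the other kinesins. Summed over the 11 mitotic kinesins, the level was 240, 241 and 234 FPKM in 5aza libraries 1 to 3, against 300.1, 306.9 and 297 FPKM in control libraries 1 to 3. The 13 transport kinesins together had 183, 187 and 177 FPKM in the 5aza libraries, against 174, 171 and 173 FPKM in the control libraries. The mitotic sum was therefore lower by 20.9%, and the transport sum higher by 5.46%, in 5aza cells, and neither sum overlapped between groups. These percentages use the values as deposited. The summed FPKM of all genes was itself lower in the 5aza libraries (577735 to 592051) than in the control libraries (601916 to 628399). No run was scaled to that sum. The ratio of the mitotic to the transport sum was 1.31 ± 0.0181 in 5aza cells and 1.75 ± 0.0421 in control cells (SD, n = 3 each). In such bulk RNA, fewer cells in or near mitosis and less RNA per cell cannot be told apart.

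**Figure D1:**
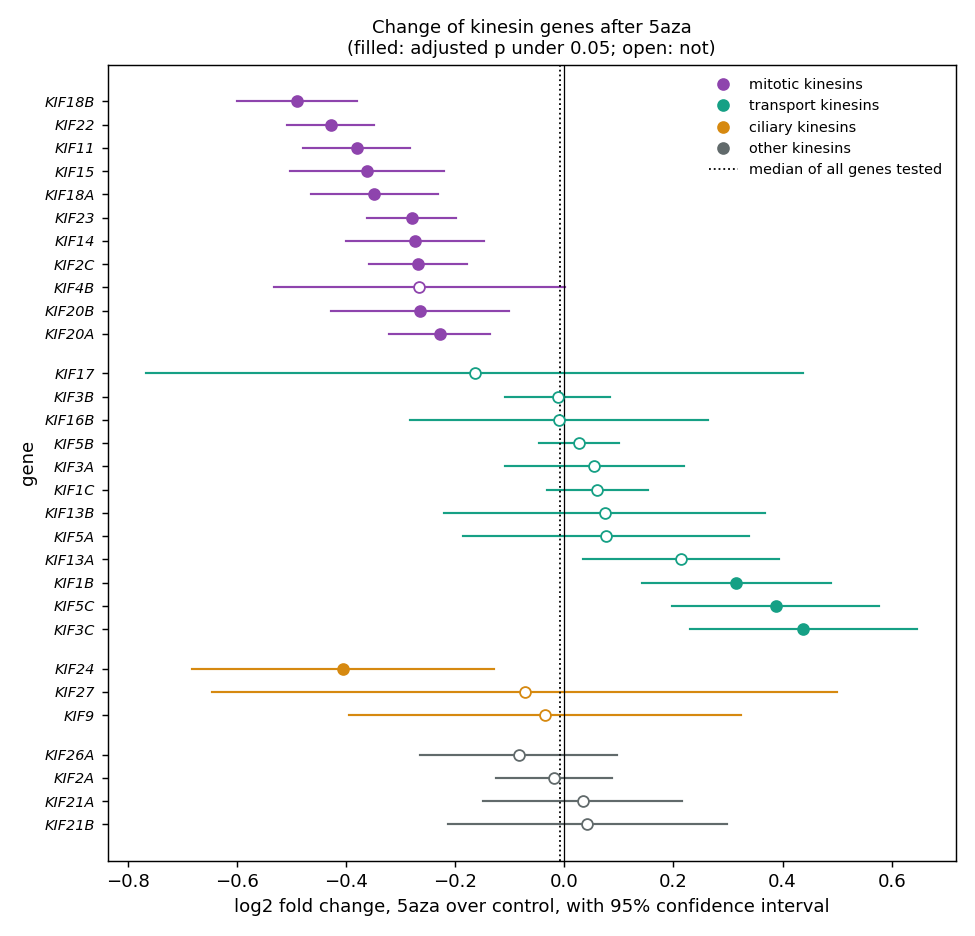
Log2 fold change of FPKM + 0.1 (5aza over control; horizontal axis) with its 95% confidence interval for the 30 kinesin genes tested (vertical axis), grouped by class; filled points had an adjusted p under 0.05 and the dotted line is the median of all genes tested. The 11 mitotic kinesins lie between -0.49 and -0.23, and the 12 transport kinesins between -0.16 and 0.44.

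The falls with the largest log2 values among the mitotic kinesins were those of KIF18B, KIF22, KIF11, KIF15 and KIF18A, motors of the spindle and the chromosomes. KIF22 (ENSG00000079616; chromosome 16, 29790719 to 29805385 on GRCh38, as annotated in GENCODE 29), a chromokinesin that pushes chromosome arms toward the spindle equator, was the most abundant of them. It had 60.9, 61.5 and 60.5 FPKM in the 5aza libraries, against 81.9, 85.1 and 79.4 FPKM in the control libraries. Each 5aza library was well below each control library, and the mean fell by 25.7% (log2 change -0.43, SE 0.034, limma adjusted p = 2.51e-04). KIF18B (ENSG00000186185; chromosome 17, 44924709 to 44947711), which shortens the astral microtubules that reach from the spindle to the cell cortex, had 11.3, 11.5 and 11.6 FPKM in the 5aza libraries, against 15.7, 15.97 and 16.9 FPKM in the control libraries. Its change was the largest of the class relative to its level (log2 change -0.49, SE 0.047, adjusted p = 5.46e-04). KIF18A, its relative that sits at the ends of kinetochore microtubules and damps the movements of chromosomes, had 19.0, 17.5 and 17.5 FPKM in the 5aza libraries, against 23.3, 22.0 and 23.4 FPKM in the control libraries (log2 change -0.35, SE 0.050, adjusted p = 0.00305).

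KIF11 (ENSG00000138160; chromosome 10, 92593286 to 92655395), the motor that pushes the spindle poles apart and the target of several antimitotic compounds, had 19.4, 21.0 and 20.6 FPKM in the 5aza libraries. The control libraries had 26.5, 26.8 and 26.3 FPKM, all above the treated ones (log2 change -0.38, SE 0.042, adjusted p = 9.73e-04). KIF15, which helps KIF11 to keep the spindle bipolar, was less abundant but changed by a similar amount. Its values were 5.04, 4.96 and 5.19 FPKM in the 5aza libraries, against 6.60, 6.57 and 6.44 FPKM in the control libraries (log2 change -0.36, SE 0.061, adjusted p = 0.00555). KIF2C, a microtubule depolymerase at centromeres that helps to correct faulty attachments, had 44.3, 44.8 and 42.0 FPKM in the 5aza libraries, against 51.4, 54.0 and 52.5 FPKM in the control libraries (log2 change -0.27, SE 0.038, adjusted p = 0.00305). Again no 5aza library reached the control range.

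The motors of cytokinesis fell as well, by smaller amounts than KIF22 and KIF18B. KIF23 (ENSG00000137807; chromosome 15, 69414246 to 69448427), which forms the centralspindlin complex with RACGAP1, had 28.8, 27.9 and 28.3 FPKM in the 5aza libraries, against 33.8, 35.2 and 34.3 FPKM in the control libraries (log2 change -0.28, SE 0.035, adjusted p = 0.00171). KIF20A, which brings the chromosomal passenger complex to the central spindle, had 27.9, 28.5 and 27.7 FPKM in the 5aza libraries, against 32.5, 34.3 and 31.9 FPKM in the control libraries (log2 change -0.23, SE 0.040, adjusted p = 0.00647). Its 95% interval, from -0.32 to -0.14, lay above that of KIF18B, from -0.60 to -0.38, although the difference between the genes was not tested. KIF14, which recruits citron kinase to the midbody, had 8.24, 8.06 and 7.64 FPKM in the 5aza libraries, against 9.78, 9.56 and 9.66 FPKM in the control libraries (log2 change -0.27, SE 0.054, adjusted p = 0.0109).

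The calls on 2 mitotic members were less firm. KIF20B, a motor of late cytokinesis, had 13.1, 13.6 and 12.0 FPKM in the 5aza libraries, against 16.7, 15.6 and 14.5 FPKM in the control libraries (log2 change -0.26, SE 0.070, adjusted p = 0.0316). That call was lost without 5aza replicate 1 (adjusted p = 0.0666), 5aza replicate 3 (0.0921), control replicate 1 (0.0931) or control replicate 2 (0.0838), and with no variance trend (0.0613). KIF4B, an intronless copy of the X-linked chromokinesin gene KIF4A, had 1.70, 1.62 and 1.45 FPKM in the 5aza libraries, against 1.98, 1.97 and 1.83 FPKM in the control libraries. The groups did not overlap, but the change did not pass the test (log2 fold change -0.27, 95% interval -0.53 to 0.0013, adjusted p = 0.136). Reads of KIF4A may have been counted here because the copies are nearly alike, so the level of KIF4B is uncertain. All 11 mitotic kinesins were lower without overlap between groups, which was true of 22.6% of all genes tested.

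**Figure D2:**
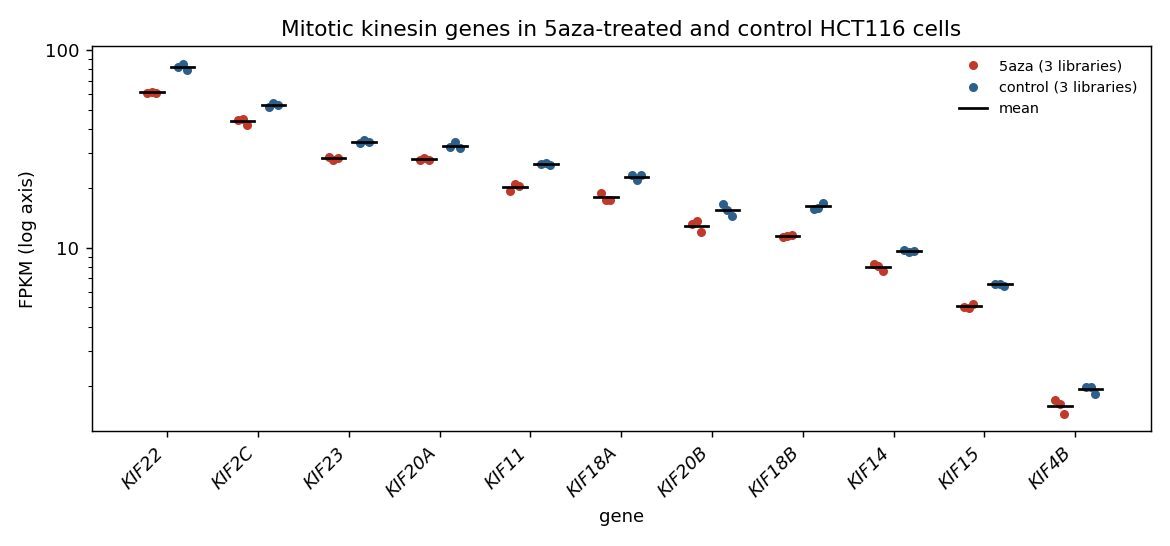
FPKM (log axis) of the 11 mitotic kinesin genes in each library, 5aza left of control for each gene; points are libraries and black lines the means of 3. In every gene the highest 5aza library lies below the lowest control library, as in KIF22, with at most 61.5 FPKM in 5aza and at least 79.4 FPKM in control libraries.

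Several of these genes share exon bases with another gene, and the sources used here do not say whether counting used strand. KIF20A shares 132 bases with BRD8 (11.8 FPKM in 5aza and 13.9 FPKM in control cells) and 68 bases with CDC23 (27.1 FPKM in 5aza and 30.9 FPKM in control cells). KIF18A shares 61 bases with METTL15 (12.96 FPKM in 5aza and 15.04 FPKM in control cells). KIF22, KIF23 and KIF2C share 561, 231 and 175 bases with antisense genes that were not analysed here. Reads from such partners could not be told apart without strand, and their part in the values was not tested.

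Within the transport class, KIF5B, the ubiquitous heavy chain of conventional kinesin, was the most abundant member. It had 72.1, 71.6 and 69.7 FPKM in the 5aza libraries, against 71.5, 68.3 and 69.6 FPKM in the control libraries, and the groups overlapped. The log2 fold change was 0.03 with a 95% interval of -0.046 to 0.10, so a fall of the size seen in any called mitotic kinesin lay outside it. KIF3B and KIF3A, the paired subunits of a motor of vesicle and intraflagellar transport, had means of 19.5 and 5.74 FPKM in 5aza cells, against 19.7 and 5.52 FPKM in control cells. Their 95% intervals were -0.11 to 0.084 for KIF3B and -0.11 to 0.22 for KIF3A. KIF1C, a carrier of vesicles, had means of 49.9 FPKM in 5aza and 47.8 FPKM in control cells (95% interval -0.032 to 0.15).

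The 3 rises in this class were those of KIF3C, KIF5C and KIF1B. KIF3C (ENSG00000084731; chromosome 2, 25926596 to 25982749), a partner of KIF3A, had 4.58, 4.76 and 4.01 FPKM in the 5aza libraries, against 3.17, 3.29 and 3.29 FPKM in the control libraries. It was 36.9% higher (log2 change 0.44, SE 0.090, limma adjusted p = 0.0123). KIF5C (ENSG00000168280; chromosome 2, 148875250 to 149026759), a neuronal heavy chain of conventional kinesin, had 4.31, 3.89 and 3.90 FPKM in the 5aza libraries, against 3.07, 3.05 and 3.06 FPKM in the control libraries (log2 change 0.39, SE 0.081, adjusted p = 0.0136). KIF1B (ENSG00000054523; chromosome 1, 10210805 to 10381603), which carries mitochondria and synaptic vesicle precursors, had 10.7, 12.5 and 10.5 FPKM in the 5aza libraries, against 9.35, 8.88 and 8.77 FPKM in the control libraries (log2 change 0.32, SE 0.075, adjusted p = 0.0209). No 5aza library of these genes fell within the control range, but KIF1B no longer passed when control replicate 2 (adjusted p = 0.0640) or control replicate 3 (0.0554) was left out. KIF1B shares 293 exon bases on the same strand with RN7SL731P, which was not analysed here. The part of such reads in its values was not tested.

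The other transport members did not pass. KIF13A, an endosomal motor, had 7.63, 8.50 and 7.24 FPKM in the 5aza libraries, against 6.54, 7.06 and 6.47 FPKM in the control libraries, with no overlap (log2 fold change 0.21, 95% interval 0.034 to 0.39, adjusted p = 0.0852). With it, 4 of the 12 tested transport kinesins were higher without overlap, where 19.6% of all genes tested were. KIF5A, KIF13B and KIF16B had means of 2.02, 3.37 and 2.09 FPKM in 5aza cells, against 1.91, 3.19 and 2.12 FPKM in control cells, with overlap in each. KIF17, a motor of dendrites and cilia, lay near the filter at 0.475 FPKM in 5aza and 0.556 FPKM in control cells, and its interval of -0.77 to 0.44 allows changes in either direction. After removal of the trend of fold change on expression, KIF17 passed as a fall (log2 change -0.90, adjusted p = 0.0459), the single such call in the class under any alternative run.

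KIF1A, the carrier of synaptic vesicle precursors, was under the filter in all 6 libraries and was not tested. It had 0.271, 0.293 and 0.315 FPKM in the 5aza libraries, against 0.0101, 0.0537 and 0.0283 FPKM in the control libraries. With no filter on low values its log2 fold change was 1.60 (SE 0.17, limma adjusted p = 0.00170), larger than that of any kinesin tested. Its mean level was below that of every other transport kinesin in either group. With no filter, 1780 of 16627 genes rose and 1461 fell. Between 755 and 801 genes stood at 0 FPKM in each 5aza library, against 1663 to 1761 in each control library. Whether the rise of KIF1A goes beyond this difference at low levels was not tested.

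**Figure D3:**
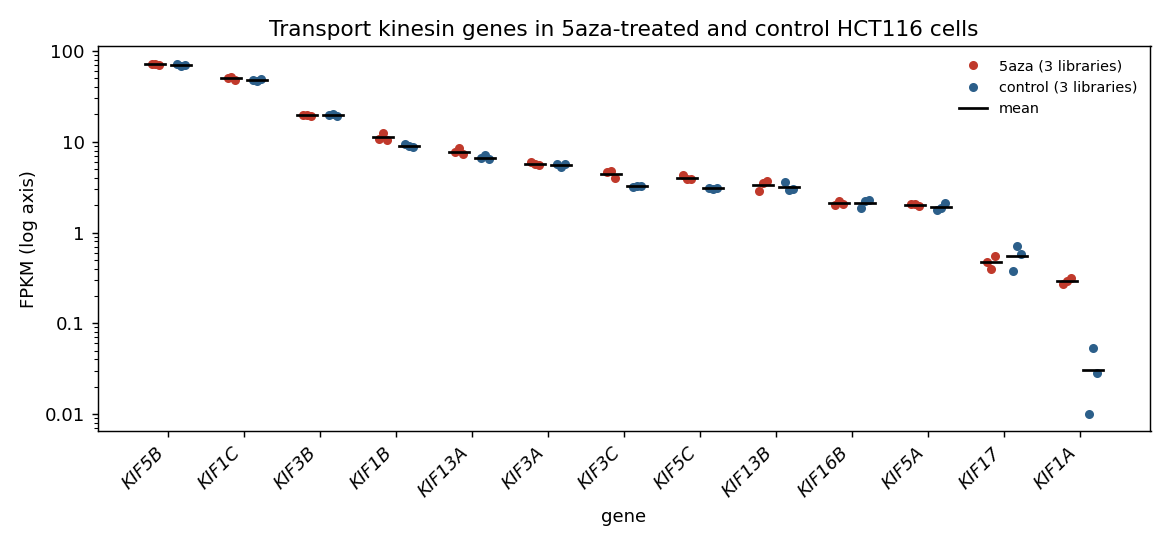
FPKM (log axis) of the 13 transport kinesin genes in each library, 5aza left of control for each gene; points are libraries and black lines the means of 3. KIF5B, KIF1C and KIF3B overlap between the groups, whereas KIF3C, KIF5C, KIF1B and, near the bottom of the axis, KIF1A lie higher in the 5aza libraries.

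Of the ciliary kinesins, KIF24, a microtubule depolymerase at centrioles that holds back the growth of cilia in cycling cells, had 1.26, 1.34 and 1.29 FPKM in the 5aza libraries, against 1.81, 1.84 and 1.61 FPKM in the control libraries. The groups did not overlap (log2 change -0.41, SE 0.12, limma adjusted p = 0.0445). The call rests on all 6 libraries, since it was lost without any 1 of them (adjusted p between 0.0529 and 0.135), and also with the replicate number as a block (0.0750), with no filter (0.0652) and with a filter on a mean of at least 1 FPKM (0.0514). KIF24 shares 143 exon bases with UBAP1 on the opposite strand, which had 21.4 FPKM in 5aza and 20.7 FPKM in control cells.

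KIF9, a motor of sperm flagella, had 7.45, 9.12 and 11.3 FPKM in the 5aza libraries, against 9.55, 10.6 and 8.11 FPKM in the control libraries, and the groups overlapped. KIF27, which like KIF7 is linked to cilia, had 0.677, 1.08 and 1.38 FPKM in the 5aza libraries, against 1.21, 0.946 and 1.06 FPKM in the control libraries. Both genes varied more among the 5aza libraries than between the groups, so their intervals, -0.39 to 0.32 and -0.65 to 0.50, are wide. On the opposite strand, KIF9 shares 870 exon bases with KIF9-AS1, which was not analysed here. It also shares 178 with KLHL18 (13.1 FPKM in 5aza and 14.1 FPKM in control cells). KIF7, a regulator of Hedgehog signalling at the tip of the cilium, KIF19 and KIF6 were under the filter. KIF7 had means of 0.313 FPKM in 5aza and 0.180 FPKM in control cells, and KIF6 had 0.0165 FPKM in 5aza and 0.0494 FPKM in control cells. KIF7 shares 589 exon bases with TICRR on the opposite strand, which had 5.47 FPKM in 5aza and 6.56 FPKM in control cells. Without strand, reads of TICRR may have been counted for KIF7, and their part was not tested. KIF19, known in mice for limiting the length of motile cilia, had 0.355, 0.219 and 0.251 FPKM in the 5aza libraries, against 0.104, 0.113 and 0.154 FPKM in the control libraries. With no filter, KIF19 passed (log2 change 0.73, adjusted p = 0.0412), whereas KIF7 (adjusted p = 0.180) and KIF6 (adjusted p = 0.199) did not. The same run gave 1780 rises and 1461 falls among 16627 genes.

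Of the 5 other kinesins, the 4 tested overlapped between groups and did not pass. KIF2A, a microtubule depolymerase of spindle poles and of neurons that is related to KIF2C, had 19.1, 19.2 and 18.0 FPKM in the 5aza libraries, against 18.4, 19.4 and 19.3 FPKM in the control libraries. Its log2 fold change was -0.02 (95% interval -0.13 to 0.088), an interval that does not reach the value of KIF2C. Counting KIF2A as a mitotic kinesin left 10 falls, then of 12. With it the mitotic values reached -0.02, so their range met that of the transport kinesins (-0.16 to 0.44). KIF2A also overlapped between groups, unlike the 11 mitotic members. KIF2A shares 428 exon bases on the same strand with IPO11, which had 18.6 FPKM in 5aza and 18.2 FPKM in control cells, so reads may have been split between them. KIF21A and KIF21B, which restrain microtubule growth, had means of 11.1 and 1.89 FPKM in 5aza cells, against 10.9 and 1.84 FPKM in control cells. KIF26A had means of 6.99 FPKM in 5aza and 7.42 FPKM in control cells. KIF26B was under the filter on low values, with 0.326, 0.292 and 0.686 FPKM in the 5aza libraries, against 0.216, 0.256 and 0.229 FPKM in the control libraries. Its groups did not overlap, and with no filter its log2 fold change was 0.61 (SE 0.28, adjusted p = 0.184).

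**Figure D4:**
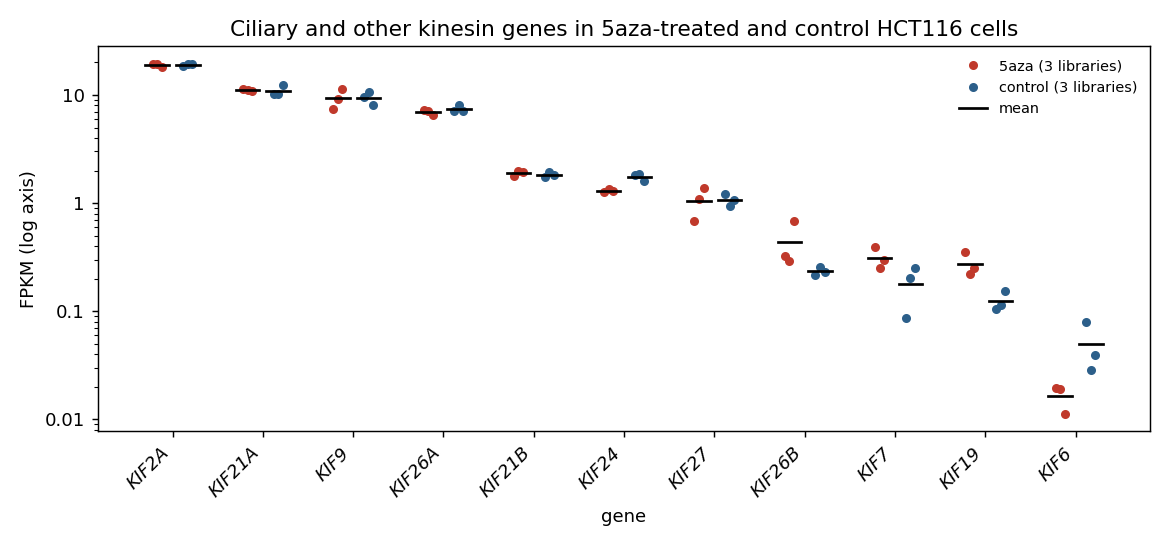
FPKM (log axis) of the 6 ciliary and 5 other kinesin genes in each library, 5aza left of control for each gene; points are libraries and black lines the means of 3. KIF24 lies lower in 5aza libraries without overlap, KIF2A, KIF21A and KIF21B overlap, and the 4 genes at the right end, KIF26B, KIF7, KIF19 and KIF6, lie under 1 FPKM.

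Kinesins without a number in their name and the partners of the motors were counted beside them. CENPE, the kinetochore kinesin that brings chromosomes to the equator, fell to 6.10 FPKM in 5aza cells, against 7.88 FPKM in control cells (log2 change -0.36, adjusted p = 0.0144). KIFC1, a minus-end motor that focuses spindle poles, fell to 34.5 FPKM in 5aza cells, against 43.9 FPKM in control cells (log2 change -0.35, adjusted p = 0.0120), while KIFC2 and KIFC3 did not pass. Of 13 partners of mitotic kinesins, 13 fell and 0 rose (0 rises also at an unadjusted p under 0.05), with a median log2 fold change of -0.31. Over all genes tested 13.1% fell, and the list was chosen with earlier results of these data known. The largest changes were those of AURKB, the kinase of the chromosomal passenger complex (log2 change -0.46), and PRC1, which bundles the microtubules of the central spindle (log2 change -0.33).

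Partners of transport kinesins moved less. There were 2 rises and 1 fall among 12 tested, and the median log2 fold change was 0.07. TRAK1, a mitochondrial adaptor of conventional kinesin, rose by 0.26 on the log2 scale and KLC1, a kinesin light chain, by 0.17, whereas RHOT1, a mitochondrial anchor of the same adaptors, fell by 0.15 (adjusted p = 0.0479). Of 19 tested genes of cytoplasmic dynein and dynactin, the motor that walks the other way, 1 fell (DYNLL1, log2 change -0.12), 0 rose and 18 did not pass, with 4 higher and 2 lower at an unadjusted p under 0.05. Among 20 intraflagellar transport genes there were 3 falls and 0 rises, with 1 higher and 6 lower at an unadjusted p. IFT52 and IFT88 had the largest falls of that list (log2 changes -0.26 and -0.24). These counts stand beside the 13.1% of all genes tested that fell and the 10.6% that rose. At an unadjusted p under 0.05 from limma, 2096 of the 12360 genes tested were higher and 2511 lower.

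Promoter windows of 300 bases, from 250 before to 50 after the start, were found in RefSeq for 29 of the 35 genes, with 1 start per gene, and both strands were searched. The start lay within 1000 bases of the gene start in GENCODE 29 for 27 of them, but 72625 bases inside the gene for KIF5C and 17897 bases upstream of it for KIF24, and which starts HCT116 cells use was not tested. A CHR core, TTTGAA or TTCGAA, was found in 9 of 11 mitotic kinesins, 1 of 11 transport kinesins, 1 of 4 ciliary kinesins and 0 of 3 other kinesins. The same letters occurred in 10.7% of the 9419 windows of tested genes and in 16.6% of all 27305 windows. A CCAAT box was present in 9 of 11 mitotic and 3 of 11 transport kinesins, against 36.5% of the windows of tested genes. In KIF22, the core TTCGAA began 27 bases before the start and the CCAAT box 66 bases before it, while in KIF18B the core TTTGAA began at the third base after the start. The core of KIF5B, the single transport kinesin with a match, began 140 bases before the start. KIF24, the ciliary kinesin that fell by a call lost without any 1 library, held TTCGAA and 3 CCAAT boxes. The box that began 154 bases before the start lies outside the printed sequence.

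KIF2C and KIF20A, which fell, held no CHR core in this window, and KIF2C and KIF15 held no CCAAT box. This says only that these letters were absent there. The windows of the mitotic kinesins held a median of 26 CpG dinucleotides, those of the transport kinesins 30, and those of all tested genes 27. KIF3C and KIF1B, which rose, held 35 and 39, and KIF1A held 10. The window of KIF5C, taken at its distant start, held 2. It is included in the transport median and in the motif counts of that class. DNA methylation was not among the data analysed here. A match is a description of the sequence, and its part in the change of a gene was not tested.

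**Figure D5:**
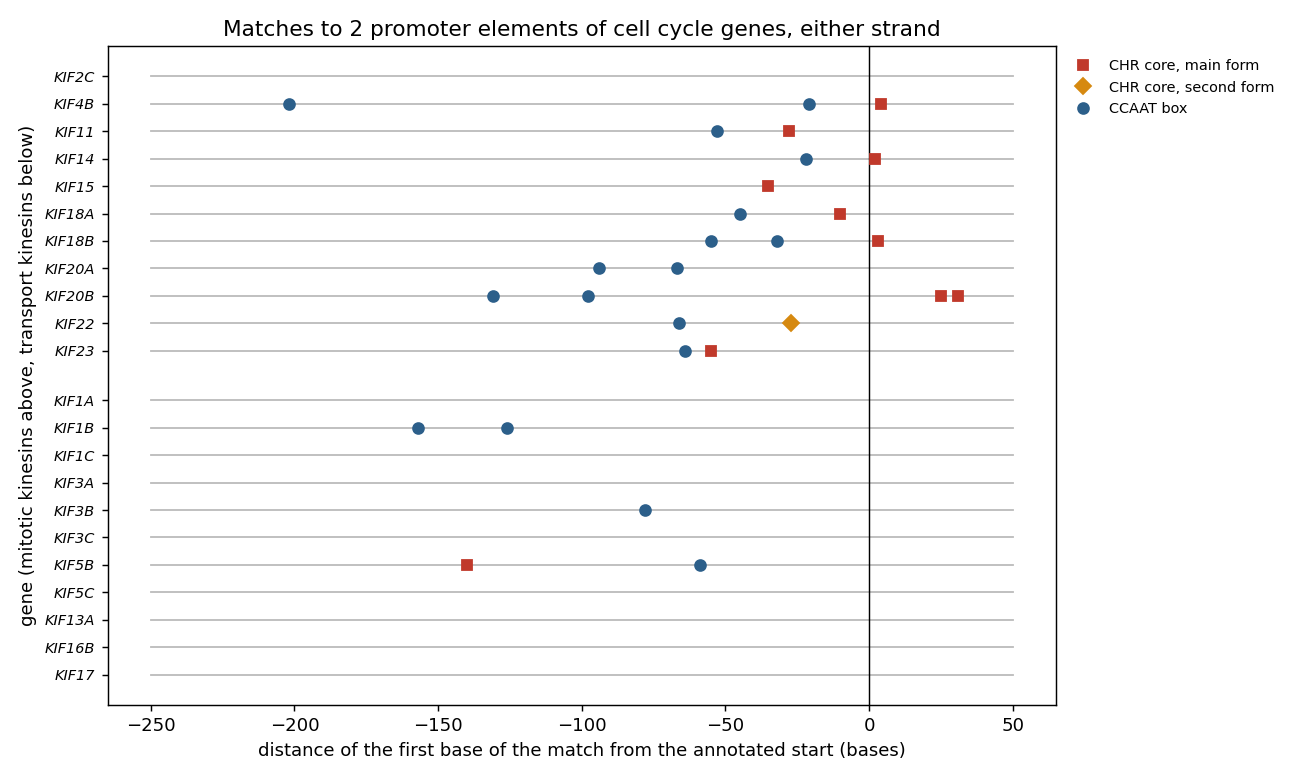
Position of the first base of each match to a CHR core (squares, TTTGAA; diamonds, TTCGAA) or a CCAAT box (circles) relative to the annotated start, in bases, for 11 mitotic kinesin promoters (above) and 11 transport kinesin promoters (below); grey lines are the windows searched. CHR cores lie near the start in 9 mitotic promoters, and 1 transport promoter holds a core, 140 bases before its start.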

How the data were processed

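The authors deposited 1 table of FPKM values per gene for 6 libraries. The submitters' processing notes name GRCh38 and Rnor_6.0 as builds and STAR 2.5.1b, HTSeq 0.6.0 and DESeq2 1.10.1 as tools, without saying what each was used for. Of 16726 rows, 16715 identifiers were distinct, and the higher row of each of 11 repeated identifiers was kept. Low values were not whole multiples of 1 read: at the best setting 30.4% to 37.4% lay within 0.1 of a whole number, where 20% would by chance at a fixed setting, so no count test was run and the depth is unknown.

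Values were used as log2(FPKM + 0.1), which understates the change of low genes. The test was limma 3.58.1 in R 4.3.3, on genes that reached 0.5 FPKM in 3 or more libraries (variance trend, two-sided, Benjamini-Hochberg over all 12360), after a check on simulated data. The members and lists were chosen with earlier results of these data known. Every kinesin gene is accounted for. Of each related list, up to 2 rising and 2 falling genes past the threshold with the largest change were named; overlapping genes were named for their position, and KIFC2 and KIFC3 to account for the list. Coordinates and overlaps are from GENCODE 29.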

Additional observations from a re-analysis of the deposited data

How the results depend on the processing

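Under pseudocounts of 1 and 0.01, other filters, other scalings, no variance trend and the replicate block, between 13 and 16 kinesin genes were called, and 10 or 11 mitotic kinesins fell. Leaving out each library gave 11 to 13 kinesin calls, 9 to 10 mitotic falls, 2 to 3 transport rises and a mitotic median log2 fold change between -0.32 and -0.28. That median was -0.33 under quantile normalization and -0.33 with the expression trend removed. With the trend removed, 1 transport kinesin (KIF17) fell and KIF4B passed as a fall (adjusted p = 0.0371), as it did with no variance trend (0.0497). Calls over all genes numbered 2929 and, without each library in turn, 1877 to 2599, with the lowest counts without 5aza replicate 3 (1877) and control replicate 2 (1880). Rises made up 44.7% of all calls as deposited and, across the alternatives that kept all libraries, between 39.5% (median scaling) and 54.9% (no filter).

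Signs turned in genes that had not passed. Under quantile normalization the log2 fold change was -0.0038 for KIF3A, 0.0027 for KIF3B, -0.067 for KIF5A, -0.032 for KIF13B and -0.10 for KIF21B, and with the trend removed -7.4e-05, 9.1e-04, -0.069, -0.023 and -0.11 in the same order. Without single libraries it ranged from -0.042 to 0.012 for KIF2A, -0.035 to 0.013 for KIF3B, -0.18 to 0.11 for KIF9, -0.099 to 0.050 for KIF16B, -0.38 to 0.0096 for KIF17, -0.011 to 0.12 for KIF21A and -0.28 to 0.18 for KIF27. The cause was not tested.

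Nothing in the labels says whether libraries with the same replicate number were paired. Same-numbered libraries correlated at 0.048, 0.077 and 0.068 in their deviations from the group means, each highest with its own number. With the replicate block, 2932 genes and 13 kinesin genes were called, KIF24 being lost. With the depth unknown, no limit can be set for members near 0 FPKM.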
